A study of Mus musculus and Homo sapiens with 12 samples.

Results

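H4K12bu, butyrylation of lysine 12 of histone H4, was mapped by CUT&Tag in the human colon line CCD841 and in mouse large intestine, and the genes carrying the mark in each were compared by name. A protein-coding gene was called marked when a merged region holding a listed peak of both replicate libraries lay within 1 kb of either end of the gene. Of 15993 genes with the same symbol in both annotations, 6306 were marked in at least 1 of the species: 1159 in both, 3162 in CCD841 only and 1985 in mouse only, and 9687 were marked in neither. Symbols are written in human style for both species.

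The series holds 12 CUT&Tag libraries, 2 for each of 6 combinations of source and mark, and the 4 H4K12bu libraries are described here. CCD841 cells, a line from human colon tissue that the labels give as epithelial, were treated here with 1 mM sodium butyrate for 12 to 16 h by the labels. There was no untreated CCD841 library among those given, so none of the values measures a response to butyrate. The mouse libraries came from large intestine of male CETP-ApoB-100 transgenic mice on a high-fat, high-sucrose diet with 5% arabinoxylan, a dietary fibre that gut bacteria ferment to short-chain fatty acids. The acetylation libraries used for comparison (H3K18ac and H4K12ac) were labelled as the same diet without arabinoxylan, whereas the study's methods describe a low-fat control diet as its group without the fibre, and the sources used here do not settle which was fed. Mark and diet therefore cannot be told apart between them and the butyrylation libraries. The labels do not say whether the 2 CCD841 libraries came from separate cultures, and the mouse libraries are of bulk tissue, in which a mark on fewer cells and a weaker mark per cell cannot be told apart.

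Butyrate is a short-chain fatty acid made in the gut lumen by fermentation of fibre, taken up and oxidised by colonocytes, and known as an inhibitor of histone deacetylases. It is also the acyl donor, through butyryl-CoA, for lysine butyrylation, a histone mark that enzymes such as p300 can place and that is generally found with acetylation at active promoters and enhancers. Lysine 12 of H4 lies in the N-terminal tail, where acylation neutralises the charge of the lysine.

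The 4 lists differed in length and in depth. The CCD841 lists held 299445 and 299296 peaks, with a median pileup (the stack at the summit as the peak caller counted it, whether of fragments or of cut sites not given in the sources used here) of 15 and 7. The mouse lists held 50932 and 96432 peaks with a median pileup of 1 in each, and 91.4% and 89.2% of their peaks rested on a pileup of 1. At a q-value below 0.05, 100% and 56.3% of the CCD841 peaks would remain, and 1.65% and 2.43% of the mouse peaks. Across the series, 8 of the 12 lists held between 299296 and 299861 rows, the CCD841 and the acetylation lists among them, and whether their length was limited was not tested. The files give no read totals, so the sequencing depth of each library is unknown. The study's methods state only an approximate average of mapped reads per sample.

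Requiring both replicates left 90476 regions in CCD841, covering 41.9 Mb, and 9920 in mouse, covering 3.22 Mb. Their positions differed: 5.78% of the CCD841 regions and 34.0% of the mouse regions lay at an end of a protein-coding gene. The CCD841 regions gave 4321 marked genes (27% of the matched genes) and the far fewer mouse regions 3144 (19.7%). In each library alone, 47.0% and 46.3% of genes were marked in CCD841, and 38.1% and 54.9% in mouse. Some neighbouring genes share a region, since 15.6% of the CCD841 regions and 16.0% of the mouse regions at gene ends touched at least 2 genes.

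The first question was whether the same genes were marked in the cells and in the tissue. The 1159 genes marked in both were 7.25% of the matched genes, against 849 expected if the marks in the 2 species were placed on genes independently, a ratio of observed to expected of 1.36. Of the genes marked in CCD841, 26.8% were marked in mouse, against 17% of the genes not marked in CCD841. Of the genes marked in mouse, 36.9% were marked in CCD841, against 24.6% of the rest. For each pairing of a single CCD841 library with a single mouse library, the ratio was between 1.11 and 1.16 (mean 1.14 ± 0.0246 SD over the 4 pairs, which share libraries). The expectation is arithmetic on the shares, and no p-value is given, because genes are not replicates and there were 2 libraries for each species.

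The ratio was compared with that of regions which no longer lay on their genes. When all regions were moved along the chromosome by 20, 100 or 1000 kb, the share of genes marked in CCD841 fell to 22.3%, 19.8% and 16.2%, and that in mouse to 4.43%, 3.48% and 2.21%. The 189, 134 and 70 genes then hit in both species gave ratios of 1.20, 1.22 and 1.22. Moved regions thus gave a ratio of about 1.2, from far fewer shared genes, and the listed positions gave 1.36. The displacement also showed how little of the CCD841 signal was tied to gene ends, as most of the gene count remained after a move of 20 kb, while in mouse most of it was lost.

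Where on the gene the mark lay separated the 2 species. Among the CCD841-marked genes, 47.1% had a region at the start only, 43.0% at the stop only and 9.95% at both ends. Among the 2550 mouse-marked genes with a known strand, 89.6% were marked at the start only, 7.25% at the stop only and 3.10% at both. In each library alone the number of genes marked at the start was 1.10 and 1.06 times that at the stop in CCD841, and 3.97 and 3.18 times in mouse. The CCD841 H3K18bu libraries, from the same cells, had 2.60 and 2.81 times as many genes marked at the start as at the stop.

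**Figure D1:**
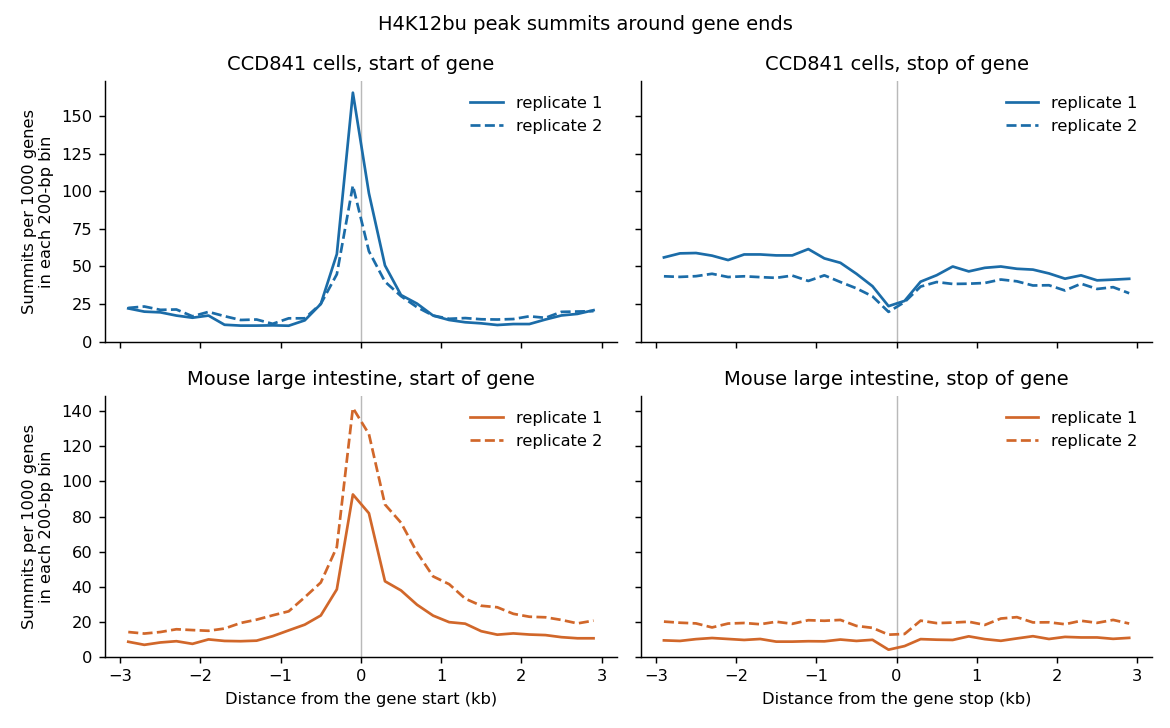
Peak summits per 1000 genes in bins of 200 bp against the distance from the gene start (left) or gene stop (right) in kb, for the 2 CCD841 (top) and the 2 mouse (bottom) H4K12bu libraries, over 12603 genes with a known strand in both species. All 4 libraries peak in the 200 bp before the start, and none has a peak at the stop, where the counts dip.

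In all 4 libraries the summits were densest in the 200 bp just before the annotated start, with 166 and 104 summits per 1000 genes in that bin in CCD841, and 92.6 and 142 in mouse. The mean of the outermost bins around the start was 21.5 and 21.4 per 1000 genes in CCD841, and 9.56 and 17.4 in mouse. At the stop there was no such maximum: the 2 bins flanking the stop held on average 25.4 and 23.1 summits per 1000 genes in CCD841, fewer than the outer bins, with 48.9 and 37.8. In the plot of summits around gene ends the CCD841 level was higher before the stop than after it, with the lowest counts at the stop itself. Stop-end marks in CCD841 were therefore no denser at the stop than in the surrounding sequence.

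The ratio was highest where the mark lay at the gene start in both species. Among the 12603 genes with a known strand in mouse, 2000 were marked at the start in CCD841 and 2365 in mouse, and 581 in both against 375 expected, a ratio of 1.55. Of the genes marked at the start in CCD841, 29.1% were marked at the start in mouse, against 16.8% of the others. A CCD841 mark at the stop with a mouse mark at the start gave 1.17, a CCD841 start with a mouse stop 0.931, and stop marks in both 0.998, the last 2 resting on 39 genes each. For start ends moved by 20, 100 and 1000 kb the ratio was 1.21, 1.20 and 1.22. These rest on 38, 29 and 16 shared genes against 31.3, 24.2 and 13.2 expected, and are imprecise.

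**Figure D2:**
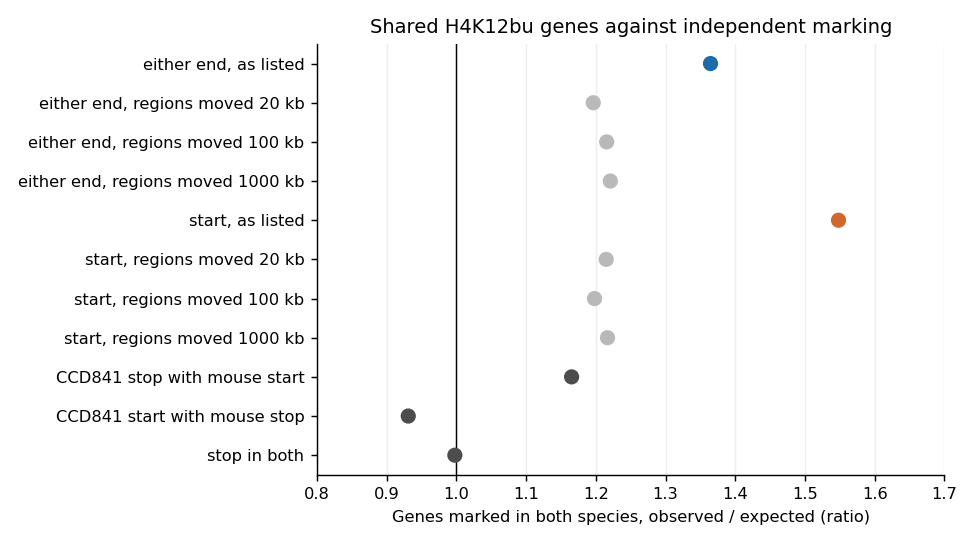
Ratio of the observed number of genes marked in both species to the number expected from the product of the 2 shares (vertical line at 1), for either gene end, for the start end, for the same regions moved by 20, 100 or 1000 kb (light grey), and for other pairings of gene ends (dark grey). The start ends give the highest ratio shown, 1.55, and the moved regions lie between 1.20 and 1.22.

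Sharing was then set against the strength of the mark, as a description. Marked genes were put in 4 groups of nearly equal size by the lower −log10 p of their replicates. From the weakest to the strongest, 24.5%, 27.9%, 27.0% and 27.9% of the CCD841-marked genes were marked in mouse, and 32.6%, 36.8%, 37.2% and 41.0% of the mouse-marked genes were marked in CCD841. Mouse-marked genes were also grouped by the lower pileup of their replicates: 35.4% of 2304 genes at a pileup of 1 were marked in CCD841, 39.6% of 579 at 2, 44.3% of 219 at 3 or 4, and 52.6% of 19 at 5 or more. Together the pileup groups hold slightly fewer genes than the 3144 marked in mouse. The median of the strongest pileup was 17 and 8 in the CCD841 replicates both for genes marked in both and for genes marked in CCD841 only, and 1 and 2 in the mouse replicates both for genes marked in both and for those marked in mouse only. A median near 1 separates little, and a pileup of at least 2 in both mouse replicates was found for 29.0% of the genes marked in both and 24.2% of those marked in mouse only.

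Many genes called specific to 1 species had a weaker or unreplicated peak in the other. Of the 3162 genes marked in CCD841 only, 2015 had a mouse peak at a gene end in some replicate, and 1147 had none. Of the 1985 marked in mouse only, 1124 had a CCD841 peak in some replicate, and 861 had none. The classes are therefore a statement about replicated peaks at these depths, not about absence, and species, cell type, exposure and depth cannot be told apart.

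The other marks of the series were counted at the same genes with the same rule. CCD841 H3K18bu was present at 71.4% of the genes marked in both, 63.6% of those marked in CCD841 only, 40.7% of those marked in mouse only and 28.5% of those marked in neither, against 40.1% of all matched genes. Mouse H3K18bu was present at 22.3%, 6.04%, 21.9% and 4.45% of the same classes. Mouse H4K12ac, the acetyl form of the same lysine, was present at 61.0%, 32.5%, 58.2% and 24.4%, and mouse H3K18ac at 55.4%, 28.1%, 52.0% and 21.6%. Each mark thus tracked H4K12bu within its own species, and the genes marked in the other species alone stood above those marked in neither for each of the 4 marks.

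**Figure D3:**
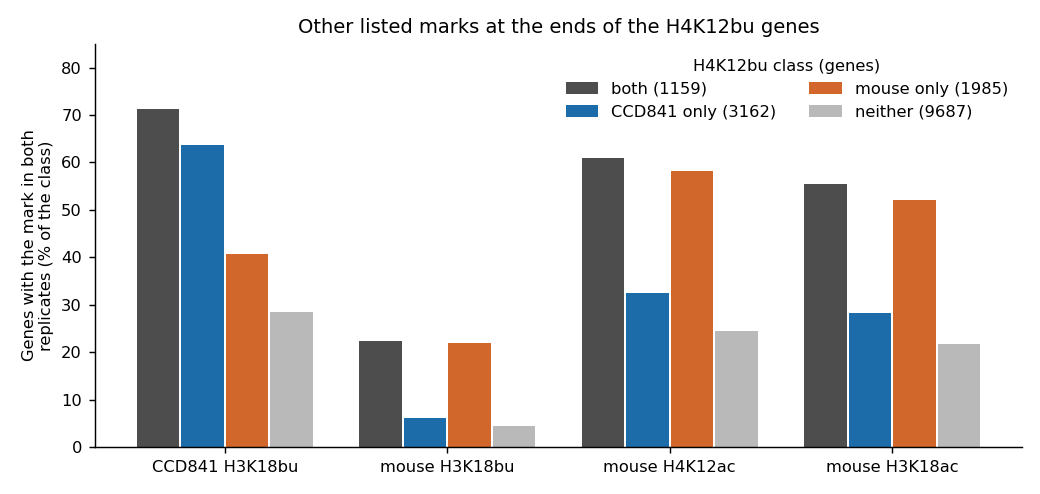
Share of genes in each H4K12bu class (both species, CCD841 only, mouse only, neither; number of genes in the legend) that carried each other listed mark in both replicates, in percent. Bars for genes marked in both are highest for each of the 4 marks, by a small margin over mouse only for the mouse marks.

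The ratio summed over groups was lower when genes were divided by the other marks. With the expectation summed separately over genes with and without CCD841 H3K18bu, the number expected in both rose to 957 and the ratio fell to 1.21. With mouse H4K12ac as the divide the ratio was 1.25, and with both divides 1.15. These sums lie close to or below the 1.20 to 1.22 of the moved regions, which were not divided in this way. They cover unlike groups. Among 6784 genes with neither mark, 146 were in both against 88.6 expected, a ratio of 1.65. It was 1.09 with mouse H4K12ac alone, 1.15 with CCD841 H3K18bu alone and 1.08 with both. In the last group the marked shares were 48.2% in CCD841 and 40.7% in mouse, and high shares limit the ratio. Other cross-species pairs gave ratios of the same order: 1.34 for H3K18bu in both species (707 genes), 1.3 for CCD841 H3K18bu with mouse H4K12bu, 1.27 for CCD841 H4K12bu with mouse H3K18bu, and 1.22 for CCD841 H4K12bu with either mouse acetylation mark. These pairs share libraries with one another and their differences were not tested.

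Genes marked in both species had CpG-rich promoters in the human genome. A CpG island is a stretch in which the dinucleotide CG escapes its usual depletion, and most housekeeping genes start in such a stretch. Over the 300 bases from 250 before to 50 after the gene start, the median ratio of observed to expected CpG was 0.822 for genes marked in both, 0.805 for mouse only, 0.747 for CCD841 only and 0.693 for neither, with 0.736 for all matched genes. The share of promoters at a ratio of 0.6 or more was 78.7%, 73.6%, 64.6% and 58.0% in the same order, and 62.8% of all. Within 6 bins of this ratio the expected number in both came to 880 and the ratio to 1.32, and for start ends in both species to 1.49. The same comparison of classes for mouse promoters is void, because a RefSeq promoter within 1 kb of the gene start was available for 69.8% of the matched genes and 77.3% of those marked in both. Among the 11164 genes that had one, the ratio of observed to expected genes in both was 1.32. Within bins of the CpG ratio in both species it was 1.24.

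Letters of a few known motifs were counted in the same human promoters, on both strands, and a match is a description of the letters and not a binding site. TATAAA, the core of the TATA box, was found in 6.04% of promoters of genes marked in both, 6.55% for mouse only, 7.78% for CCD841 only and 10.9% for neither (9.41% of all). TGACTCA, the AP-1 element, was found in 2.93%, 3.83%, 3.95% and 3.8% (3.77% of all). CCGGAAG, bound by ETS factors, was found in 17.8%, 16.9%, 13.6% and 9.22% (11.7% of all), and GCATGCGC, part of the NRF1 element, in 6.64%, 6.20%, 3.92% and 2.94% (3.81% of all). The last 2 motifs were added after the marked genes had been seen.

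The genes with the strongest evidence in all 4 libraries were those whose lowest percentile of −log10 p, taken within each library, was highest, and the first 8 had varied cellular roles. SPG11, whose product spatacsin acts in lysosome recycling, had pileups of 30 and 11 in the CCD841 replicates and 3 and 5 in the mouse replicates. ARL14EP, an effector of the GTPase ARL14, had 38 and 15 in CCD841 and 3 and 11 in mouse. AMN1 had 26 and 11 against 4 and 3. RAB18, a small GTPase of the endoplasmic reticulum and lipid droplets, had 29 and 10 against 4 and 6. In each case CCD841 replicate 1 was higher than replicate 2, as was the median over its list, and the mouse pileups lay below the CCD841 values of the same gene.

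The distance of the summits from the gene start varied among these genes. For ARL14EP they were 15 and 178 bases before the start in CCD841, and 72 and 40 bases after it in mouse. For AMN1 they were 81 and 84 bases before the start in CCD841, with 1 base after and 102 before in mouse. For SPG11 they were 159 and 153 bases before the start in CCD841, but 984 and 981 bases after it in mouse. The start was taken as the outermost annotated base of the gene.

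CEP170 and SDCCAG8, both coding for centrosomal proteins, are divergent neighbours and shared a region, so they are 1 observation. Their common peaks had pileups of 21 and 10 in CCD841 and 2 and 4 in mouse, with summits between the starts of the genes in CCD841. The CEP170 summits lay 461 and 603 bases before its start in CCD841 and 761 and 820 bases before it in mouse. The mouse strand of SDCCAG8, RAB18 and GUF1 was not in the table used, so a distance from the mouse start is not given for them. GUF1, a mitochondrial translation factor, had 25 and 11 in CCD841 and 4 and 10 in mouse. DDX18, a nucleolar RNA helicase, had 22 and 9 in CCD841 and 2 and 2 in mouse, and its human summits lay 192 and 210 bases before the start.

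**Figure D4:**
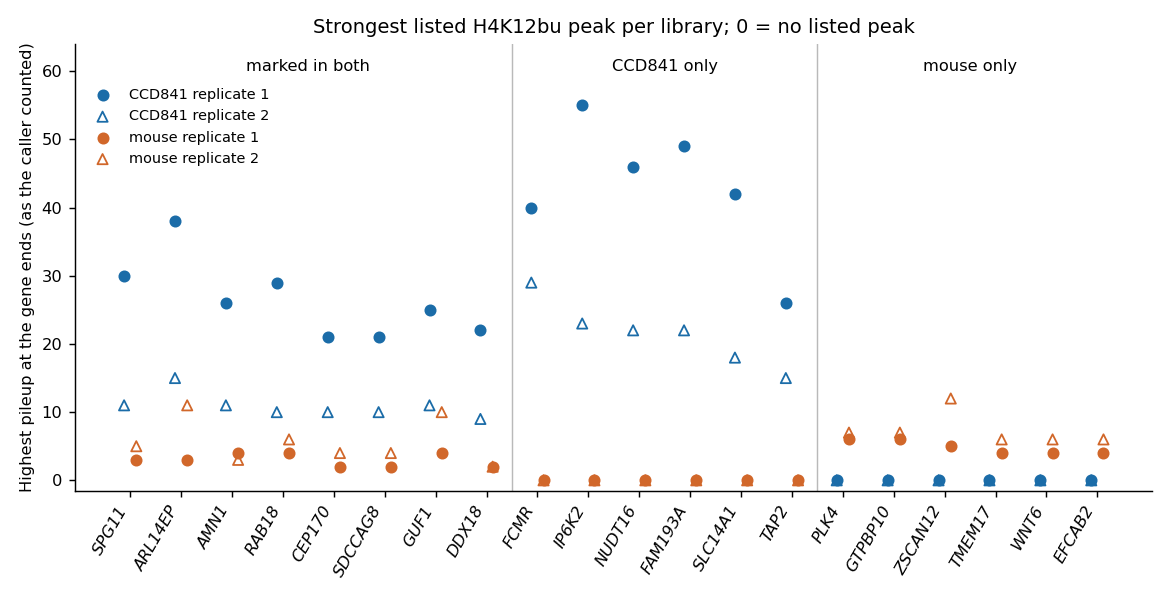
Pileup (the stack at the summit as the peak caller counted it) of the strongest listed H4K12bu peak at the gene ends in each of the 4 libraries, for the 8 genes ranked first among those marked in both, the 6 strongest marked in CCD841 only and the 6 strongest marked in mouse only; 0 stands for no listed peak. CCD841 values of the shared genes run from 9 to 38 and mouse values from 2 to 11.

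The bases before the start of 3 genes are shown, 1 from each class, to set a peak-bearing start beside one without a listed peak, and a CpG-rich start beside a CpG-poor one. Each is the 250 bases directly before the annotated start, outside other annotated genes, read 5′ to 3′ on the strand of the gene, with CpG in capitals. DDX18 (marked in both) lies at chr2:117814441-117814690 on the plus strand of GRCh38, with 18 CpG, and at chr1:121567981-121568230 on the minus strand of GRCm38.p6, with 10 CpG. PLK4 (mouse only) lies at chr4:127880643-127880892 on the plus strand, with 24 CpG, and at chr3:40799701-40799950 on the plus strand, with 13. FCMR (CCD841 only) lies at chr1:206923248-206923497 on the minus strand, with 4 CpG, and at chr1:130865527-130865776 on the plus strand, also with 4. Human sequence is from the GRCh38 reference and mouse sequence from RefSeq.
DDX18 human: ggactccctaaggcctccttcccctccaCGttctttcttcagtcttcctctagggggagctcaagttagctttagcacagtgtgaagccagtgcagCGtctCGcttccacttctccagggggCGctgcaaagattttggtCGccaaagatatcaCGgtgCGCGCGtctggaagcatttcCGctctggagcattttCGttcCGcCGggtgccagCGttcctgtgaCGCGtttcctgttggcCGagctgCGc
DDX18 mouse: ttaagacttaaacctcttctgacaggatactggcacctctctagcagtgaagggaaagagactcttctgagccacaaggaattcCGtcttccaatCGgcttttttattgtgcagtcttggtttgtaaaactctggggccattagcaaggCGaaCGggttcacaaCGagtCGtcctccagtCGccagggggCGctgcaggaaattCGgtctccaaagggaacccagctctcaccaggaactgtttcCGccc
PLK4 human: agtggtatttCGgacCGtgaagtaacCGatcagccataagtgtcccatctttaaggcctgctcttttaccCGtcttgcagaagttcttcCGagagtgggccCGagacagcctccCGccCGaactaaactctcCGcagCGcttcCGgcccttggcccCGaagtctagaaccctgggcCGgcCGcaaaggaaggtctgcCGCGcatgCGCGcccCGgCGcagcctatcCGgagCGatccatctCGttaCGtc
PLK4 mouse: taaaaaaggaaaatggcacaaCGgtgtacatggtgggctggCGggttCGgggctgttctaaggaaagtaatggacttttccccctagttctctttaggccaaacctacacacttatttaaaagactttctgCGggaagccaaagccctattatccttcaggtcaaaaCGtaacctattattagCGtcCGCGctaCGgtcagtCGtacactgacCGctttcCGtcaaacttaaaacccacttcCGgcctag
FCMR human: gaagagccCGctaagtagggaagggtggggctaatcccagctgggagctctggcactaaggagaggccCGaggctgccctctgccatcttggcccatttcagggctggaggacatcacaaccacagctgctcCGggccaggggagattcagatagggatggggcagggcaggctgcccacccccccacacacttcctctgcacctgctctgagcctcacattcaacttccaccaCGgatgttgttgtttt
FCMR mouse: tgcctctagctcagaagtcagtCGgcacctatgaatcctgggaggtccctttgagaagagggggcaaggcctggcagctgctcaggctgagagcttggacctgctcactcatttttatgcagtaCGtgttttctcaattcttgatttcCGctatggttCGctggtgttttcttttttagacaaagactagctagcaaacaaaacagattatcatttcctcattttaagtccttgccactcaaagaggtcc

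Listed peaks covered the whole human DDX18 stretch in both CCD841 replicates, and part of the mouse stretch in replicate 1 only. For PLK4 they covered part of the mouse stretch in both replicates and none of the human stretch. For FCMR they covered part of the human stretch in replicate 1, and neither mouse replicate had a peak there. The longest run of letters common to the human and mouse stretches was 15 bases for DDX18, ccagggggCGctgca, found 121 bases before the human and 53 bases before the mouse start. On either strand that run occurred in 3 of 15993 human and 3 of 11164 mouse promoters. For PLK4 and FCMR the longest common run was 9 bases.

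Genes marked in CCD841 only and without a mouse peak in either replicate were led by FCMR, the Fc receptor for IgM, with pileups of 40 and 29. IP6K2, an inositol hexakisphosphate kinase, followed with 55 and 23, and NUDT16, a nudix hydrolase, with 46 and 22. FAM193A had 49 and 22, SLC14A1, a urea transporter, 42 and 18, and TAP2, which loads peptides for MHC class I, 26 and 15. They were chosen for the strength of their CCD841 peaks, so their pileups are not set against those of the shared genes. The summits were at the start for IP6K2, NUDT16 and TAP2, 1051 and 1043 bases before it for FCMR, 833 and 836 bases after it for SLC14A1, and near the stop for FAM193A.

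Genes marked in mouse only and without a CCD841 peak in either replicate were led by PLK4, the kinase that starts centriole duplication, with pileups of 6 and 7. GTPBP10, a factor in assembly of the mitochondrial ribosome, also had 6 and 7, and ZSCAN12, a zinc finger protein, 5 and 12. TMEM17, a protein of the ciliary transition zone, WNT6, a Wnt ligand, and EFCAB2 each had 4 and 6. The summits lay within 100 bases of the start for PLK4, GTPBP10, ZSCAN12 and WNT6. These genes were chosen for the strength of their mouse peaks, so their pileups are not set against the medians of the lists.

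A selection of 19 genes that the study names, some of them only as transcription factors with a motif, was looked up. The study names them for various marks and cells. For mouse H4K12bu it names CLDN3 and FGFRL1, and both were marked in mouse. AKAP9, CYRIA and FGF14 are named for mouse H3K18bu, and CTNNB1, LEF1 and TCF20 for propionylation in colorectal cancer cells. Of the 19 genes, 2 were marked in both species: FOSL2, a subunit of the AP-1 transcription factor, and KLF5, a zinc finger factor of intestinal crypt cells. FOSL2 had pileups of 14 and 8 in CCD841, 374 and 367 bases after the start, and 1 and 3 in mouse, 780 and 584 bases before it. KLF5 had 11 and 5 in CCD841, 1032 and 1012 bases from the nearer end, which was the stop, and 2 and 1 in mouse, 2 and 110 bases from a gene end. The 19 genes had 5 marked in CCD841 and 5 in mouse, against 27% and 19.7% of all matched genes, and 2 in both, against 7.25%, so their counts were near the background. With a pileup of at least 2 in each library, FOSL2 and KLF5 lost their mouse call. In neither of FOSL2 and KLF5 did the summits lie at the same place in both species.

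JUN, CTNNB1 and TGFBR2 were marked in CCD841 only. TGFBR2, the type II receptor for TGF-beta, had pileups of 15 and 9 at 199 and 211 bases before the start, and a mouse peak of 1 in replicate 2. JUN had 13 and 5 in CCD841, and mouse peaks of 1 and 3 that were not joined in a region. CTNNB1, which codes for beta-catenin, had 13 and 6 at 363 bases from its stop, and a mouse peak of 1 in replicate 2. CLDN3, FGFRL1 and MYC were marked in mouse only. CLDN3, a tight junction claudin, had 3 and 3 in mouse and a CCD841 peak of 7 in replicate 2, and FGFRL1, a decoy-like FGF receptor, had 3 and 2 at 129 and 138 bases before the start and no CCD841 peak. MYC had 1 and 1 in mouse and 8 in CCD841 replicate 2, and its mouse call was lost at a pileup of at least 2. Over the settings that change a single choice, the class of MYC changed under 8, that of JUN under 7 and those of CTNNB1, CLDN3 and KLF5 under 5 each. The other 11, AKAP9, CYRIA, FGF14, FOS, FOSL1, JUNB, KLF14, LEF1, SMAD2, SMAD3 and TCF20, were marked in neither, although AKAP9, FOSL1, SMAD2 and SMAD3 each had a peak in 1 CCD841 replicate, and CYRIA and JUNB had mouse peaks in both replicates that were not joined. FGF14, KLF14, LEF1 and TCF20 had no peak in any of the 4 libraries.

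Functions were described with 33 gene lists, of which olfactory receptors had no matched gene, and a list is given by the number of its members in each class beside the shares over all matched genes, which were 7.25% in both, 27% in CCD841 and 19.7% in mouse. The lists were chosen with earlier results of these data known. Protein processing in the endoplasmic reticulum and the unfolded protein response had 11 of 41 members in both (26.8%), 20 in CCD841 (48.8%) and 17 in mouse (41.5%). EIF2AK3, the stress kinase PERK, had pileups of 18 and 12 in CCD841 and 1 and 3 in mouse. DNAJB9, a chaperone partner of BiP, had 16 and 7 against 4 and 2, and EDEM3, which trims glycans of misfolded proteins, 26 and 6 against 2 and 3. HSPA5, coding for BiP itself, was marked in CCD841 only, and CALR and DDIT3 in mouse only. Counting start ends in both, 7 of 36 members remained (19.4%), against 4.61% of all. Other marks were frequent on this list too. CCD841 H3K18bu was at 68.3% (40.1% of all), mouse H3K18ac at 43.9% (29.1%) and mouse H3K18bu at 14.6% (8.23%). Mouse H4K12ac was at 34.1%, near the 32.8% of all.

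Nuclear genes of oxidative phosphorylation had 17 of 65 members in both (26.2%), 26 in CCD841 and 29 in mouse (44.6%). Of the 17, 11 were subunits of complex I, and NDUFA4 is now counted with complex IV. NDUFS6 had pileups of 37 and 11 in CCD841 and 5 and 4 in mouse, NDUFA4 16 and 7 against 2 and 2, and NDUFA9 17 and 9 against 2 and 2. SDHB of complex II, UQCRB, UQCRC2 and UQCRQ of complex III and COX7A1 of complex IV were also marked in both. At start ends 8 of 53 members were marked in both (15.1%). Mouse H4K12ac was at 47.7% of the oxidative phosphorylation list, against 32.8% of all, and CCD841 H3K18bu at 33.8%, against 40.1%. Genes for H3K9 methylation and demethylation had 6 of 23 in both (26.1%): the methyltransferase SETDB2, the demethylases KDM4A, KDM4B, PHF8 and PHF2, and TRIM28, the corepressor that recruits SETDB1. All 6 had a pileup of 1 in at least 1 mouse replicate, and at a pileup of at least 2 in each library none remained in both.

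The other lists of general cell functions had smaller shares in both. Splicing factors had 6 of 42 in both (14.3%), with 45.2% in CCD841 and 23.8% in mouse. RNA polymerase II subunits and general factors had 9 of 79 in both (11.4%), and cytosolic ribosomal proteins 7 of 85 (8.24%). The AP-1, MYC and KLF factors had 5 of 42 in both (11.9%), SP1, ATF2, MXD4, FOSL2 and KLF5, with 26.2% in CCD841 and 38.1% in mouse. Those marked in mouse only included ATF3, JUND, MYC, KLF9 and KLF13. Endosome, lysosome and autophagy genes had 4 of 51 in both (7.84%; VPS35, VPS26A, CTSD and CHMP2A), with 33.3% in each species.

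Genes that transport, sense and oxidise butyrate had 3 of 35 in both: ACADM and ETFA, which act in the first dehydrogenation step of mitochondrial fatty acid oxidation and its electron transfer, and ACAT2, a cytosolic thiolase. ACADM had pileups of 16 and 5 in CCD841 and 3 and 6 in mouse, ACAT2 25 and 10 against 2 and 5, and ETFA 12 and 5 against 2 and 2. All 3 were marked at the start in both species at a pileup of at least 2 in each library. SLC16A1, the monocarboxylate transporter MCT1 through which butyrate enters colonocytes, was marked in CCD841 only, with 15 and 8 in CCD841 and 2 in mouse replicate 2. Histone deacylases had 1 of 18 in both (5.56%), HDAC11, and acyltransferases and acyl readers 2 of 31 (6.45%), YEATS4 and BRPF1. EP300, coding for p300, was marked in CCD841 only, and HDAC2 in mouse only, with CCD841 peaks of 10 and 5 that were not joined in a region.

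**Figure D5:**
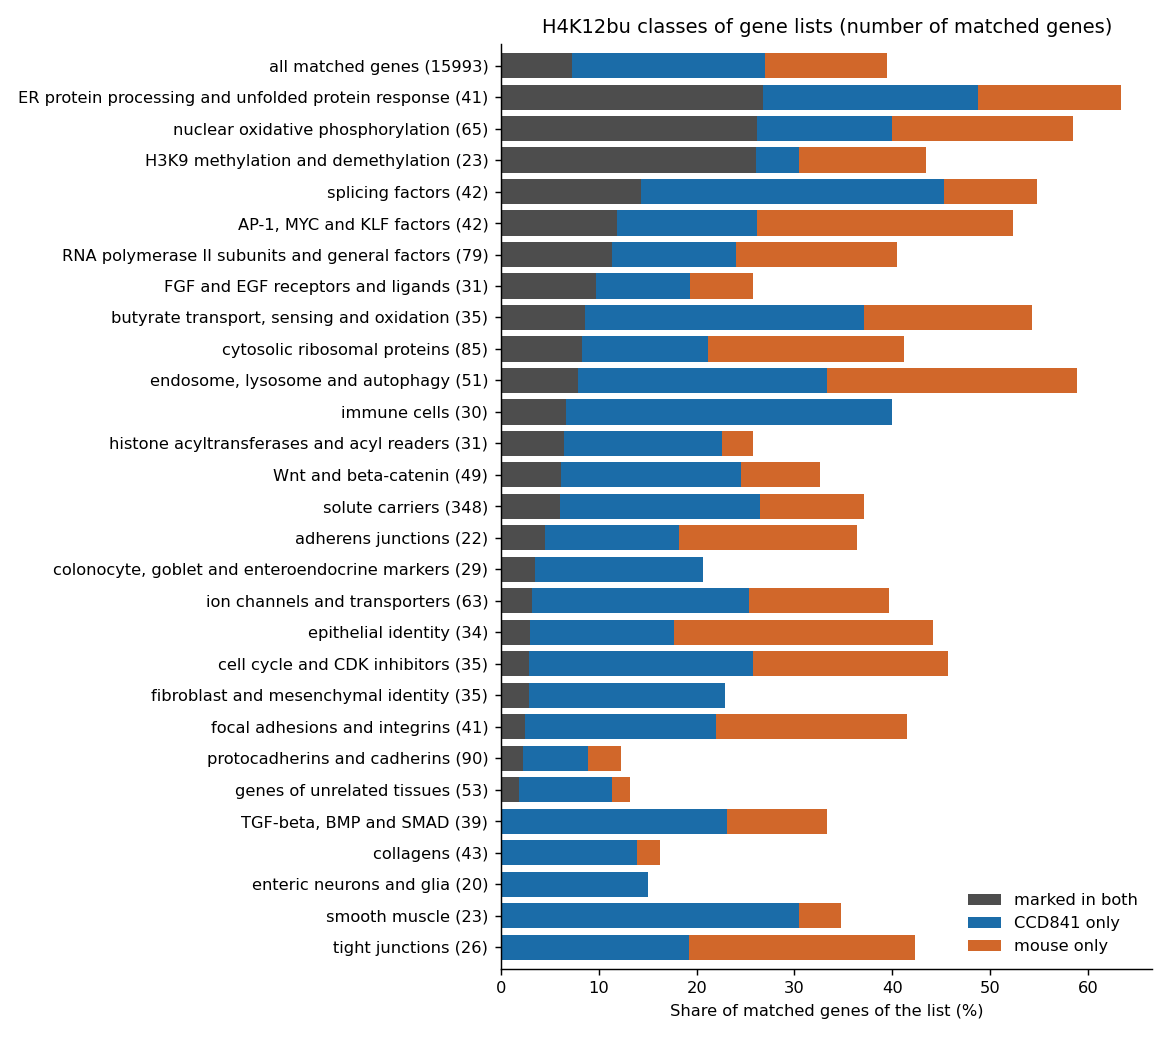
Share of the matched genes of each list (number in brackets) that were marked in both species, in CCD841 only or in mouse only, in percent; lists with fewer than 20 matched genes and 1 further list are left out, and all matched genes are the top bar. The lists of protein processing, oxidative phosphorylation and H3K9 methylation have 26.1% to 26.8% of their genes in both, against 7.25% of all.

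The remaining lists had between 0 and 9.68% of their members in both, and with so few members most counts cannot be set apart from the 7.25% of all. Tight junctions had 0 of 26 in both, with 5 members in CCD841 (CLDN4, CLDN15, MAGI3, SYMPK and TJP1) and 6 in mouse (CLDN3, CLDN7, CLDN8, CLDN23, F11R and MAGI1). Adherens junctions had 1 of 22 in both (4.55%), JUP, and focal adhesions and integrins 1 of 41 (2.44%), BCAR1. TGF-beta, BMP and SMAD genes had 0 of 39 in both, with 9 in CCD841 and 4 in mouse (ACVR2A, ID1, SKI and TGIF1). Wnt and beta-catenin genes had 3 of 49 in both (6.12%): FZD1, a Wnt receptor, and APC and GSK3B of the beta-catenin destruction complex. The intestinal stem cell marker LGR5 was marked in mouse only, with 1 and 1. FGF and EGF receptors and ligands had 3 of 31 in both (9.68%), EGFR, FRS3 and ERRFI1, and cell cycle genes 1 of 35 (2.86%), MCM5. Ion channels and transporters had 2 of 63 in both (3.17%), CLCN3 and ATP1B1, and solute carriers 21 of 348 (6.03%). Collagens and laminins had 0 of 43 and 0 of 11, and cadherins and protocadherins 2 of 90 (2.22%), CDHR2 and CDHR5, both of the brush border.

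Markers of cell types were counted to check the labels. In mouse, 10 of 34 genes of epithelial identity were marked (29.4%, against 19.7% of all), among them CDH1, VIL1, CLDN3, CLDN7, ELF3 and GRHL2, while 1 of 35 fibroblast genes (2.86%), 1 of 23 smooth muscle genes (4.35%), 2 of 30 immune genes (6.67%), and 0 of 17 endothelial and 0 of 20 neuronal and glial genes were. The fibroblast gene was FBN1, the smooth muscle gene CSRP1 and the immune genes SPI1 and CD14. Among genes with a known mouse strand, 3 of 20 epithelial genes were marked at the start (15%), below the 18.8% of all. At the stop 2 of 20 were marked (10%), against 2.09% of all. Start marks were found on 1 of 21 fibroblast genes (4.76%), 0 of 18 smooth muscle genes and 0 of 19 immune genes. Of 29 colonocyte, goblet and enteroendocrine markers 1 was marked, GUCA2A, and MUC2 was not. Of 53 genes of unrelated tissues 2 were marked, POMC and APOB, the latter a gene that intestinal epithelium also expresses. In the 2 mouse libraries alone, 38.1% and 54.9% of all matched genes had a peak. Of the 34 epithelial genes 19 and 27 had one, with summed pileups of 22 and 40 and CLDN3 (3) and CDX1 (4) highest. Fibroblast genes with a peak numbered 4 and 12 of 35, summed pileups 4 and 12, and immune genes 4 and 6 of 30, summed pileups 5 and 8.

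In CCD841 the epithelial list did not stand above most other cell types. H4K12bu marked 6 of 34 epithelial genes (17.6%, against 27% of all), 8 of 35 fibroblast genes (22.9%), 7 of 23 smooth muscle genes (30.4%), 12 of 30 immune genes (40%), 6 of 29 colonocyte, goblet and enteroendocrine markers (20.7%), 4 of 17 endothelial genes (23.5%), 3 of 20 neuronal and glial genes (15%) and 6 of 53 genes of unrelated tissues (11.3%). Summed pileups in the replicates were 203 and 123 for epithelial genes, with KRT8 at 36 and 12, 224 and 125 for fibroblast genes, led by S100A4 (44) and PDGFRB (14), and 235 and 131 for immune genes, led by CORO1A (37 and 14). At the start end, 2 of 34 epithelial genes carried H4K12bu (KRT8 and KRT18) and 1 carried H3K18bu (VIL1), against 15.4% and 33.7% of all genes. Of 35 fibroblast genes, 5 carried H4K12bu (14.3%) and 10 H3K18bu (28.6%) at the start, and of 23 smooth muscle genes 3 (13.0%) and 6 (26.1%). The immune list was above the share of all genes for H4K12bu at the start, with 10 of 30 (33.3%), but not for H3K18bu, with 8 (26.7%), and the endothelial list had 3 of 17 (17.6%) and 5 (29.4%). At the stop, H3K18bu marked 8 of 34 epithelial genes (23.5%, against 9.62% of all), and at either end 9 (26.5%, against 40.1%). The epithelial label of the line was not borne out at gene starts or over either end, and the peak lists do not measure expression.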

How the data were processed

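The authors made the peak lists from CUT&Tag reads with an ENCODE pipeline written for ATAC-seq, and the submitters' processing notes name bcl2fastq 2.17.1, cutadapt 1.9.1, Bowtie2 2.3.1, MACS2 2.1.0 and the builds hg38 and mm10. The shift and extension used by the caller are not given in the sources used here. The deposited lists hold, for each peak, a fold over background as a ratio. The deposited significance values are −log10 p and −log10 q. A deposited peak also carries the summit position. No control library or read total was used here, so the depth of each library is unknown and the pileup behind each peak sets the precision.

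The pileup was recovered from the fold and −log10 p, within a tolerance of 0.01, and the scripts were tested on simulated data. Peaks of the replicates were merged where they shared at least 1 bp, and merged regions with a peak of each replicate were kept. Gene ends came from GENCODE release 44 and RefSeq GRCm38.p6, and a gene was marked when a region lay within 1 kb of an end. A total of 15993 genes had identical upper-case symbols. The mouse table gave a strand for 12603 of them, so start and stop were compared in those. The expected number in both is the product of the marked shares, and no test was made, since each group has 2 libraries and genes are not replicates.

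Named genes were a selection of 19 that the study names, the 8 highest by their lowest percentile in both species, and the 6 highest by the lower −log10 p of the replicates in each single-species class without a peak in the other species. In each list at most 4 shared members were to be named by the same measure; further members, including those marked in a single species, were chosen after their values were seen. 1 list and 1 marker gene are not reported here. The members and lists were chosen with earlier results of these data known. Alternatives covered each replicate left out, q and pileup thresholds, equal numbers of peaks, window size, start ends, overlap rule, shared gene ends and the sex chromosomes. Analyses used Python 3.11.15, pandas 2.3.3, NumPy 2.4.6, SciPy 1.17.1 and matplotlib 3.10.9.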

Additional observations from a re-analysis of the deposited data

How the results depend on the processing

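The ratio of observed to expected genes in both stayed above 1 under each alternative run, between 1.088 and 1.855, while the counts depended on the thresholds. The ratio was at or below the 1.20 to 1.22 of moved regions with a peak of either replicate (1.088) and without mouse replicate 1 (1.181). The same held with a window of 3 kb (1.199) and without CCD841 replicate 1 (1.207). Moved regions were not recomputed under these settings. The highest ratio possible falls as the marked shares rise. With a peak of either replicate the shares were 61.4% in CCD841 and 63.4% in mouse, against 22.3% and 4.43% for regions moved by 20 kb. These ratios therefore do not show that sharing fell to the level of moved regions. No paired analysis was possible because the result comes from no test and the replicate numbers of cells and mice share no source. Leaving out 1 replicate at a time gave 1755 to 2801 genes in both, 1520 to 5655 in CCD841 only, 1281 to 5975 in mouse only and ratios of 1.181 to 1.261, since 1 library then decides. With q below 0.05, 55 genes were in both and 102 in mouse only (ratio 1.694), and with q below 0.01, 11, 2001 in CCD841 only and 47 in mouse only (1.508). A pileup of at least 2 gave 318 and 440 in mouse only (1.553), and equal numbers of the strongest peaks 180 and 706 in CCD841 only (1.678). A window of 3 kb gave 2286 and 5284 in CCD841 only (1.199), and 0.5 kb a ratio of 1.517. Start ends gave 581 and 1419 in CCD841 only (1.548), and, added after seeing the data, with a pileup of at least 2, 169, 1831 and 405 in mouse only (1.855). A peak of either replicate gave 6781 and 3366 in mouse only (1.088), and genes with no other gene end nearby 548, 1683 and 1011 (1.5). The cause of these shifts was not tested. Over the alternatives, 45 of 64 values of the class counts and the ratio moved, as did 274 of 512 counts of list members marked in both (a move is over 1.5 times for counts). Of 594 class assignments of named genes, 80 moved. In mouse, 91.4% and 89.2% of the peaks rested on a pileup of 1.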
